A study of Mus musculus with 86 samples.

Results

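The genes described here lie around Dll1 on mouse chromosome 17, and they were taken as every probe whose symbol in the platform annotation was Zdhhc14, Dynlt1b, Ccr6, Mrpl18, Tcp1, Psmb1, Tbp or Pdcd2. These 8 genes were represented by 11 probes, of 9030 gene symbols on 12771 named probes. Tcp1 had 3 probes, Dynlt1b had 2, and each of the other genes had 1. The genes were chosen by their place near Dll1 with earlier results of these arrays known, and were selected on measured ratios at least for Pdcd2, Psmb1, Mrpl18 and Ccr6 (C3H liver) and Dynlt1b (C3H brain). All ratios of the 8 genes are therefore given as a description, with no p-value.

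Organs of male Dll1 +/- mice, which carry the Dll1tm1Gos allele with a lacZ reporter inserted into Dll1, were compared with wild-type organs of the same strain on 86 2-colour cDNA arrays of 20794 probes. In the C3H line, liver, thymus, brain and spleen of 5 heterozygous mice aged 15 weeks were each hybridised against a C3H wild-type pool. In 129SvJ/Iso, liver and brain of 4 and spleen of 5 heterozygous mice aged 16 weeks were hybridised against 129SvJ/Iso pools, and thymus as 1 heterozygous pool against 1 wild-type pool, of 4 mice each, on 6 arrays. Every value below is a log2 ratio of heterozygous over wild-type RNA, given as the mean ± SD over mice, so that 1 stands for a doubling and values above 0 for a higher level in heterozygotes. The pool counts as 1 control, and spread among wild-type mice does not enter the error. A ratio holds no level, and neither the organ labels nor the order of genes by expression could be checked. In whole organs, fewer cells of a type and less RNA per cell cannot be told apart.

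Dll1 encodes a ligand through which a cell activates Notch receptors on its neighbours. The segment proximal to it is part of the t complex, a stretch of chromosome 17 long studied in mouse genetics for its inversions and its effect on sperm, from which Tcp1 and Dynlt1b (formerly Tctex1) took their first names. A mutation made in embryonic stem cells of one strain and moved to another strain by repeated crossing brings donor DNA on either side of the target with it, so that a heterozygote of the C3H line can be heterozygous for strain differences near Dll1 while its wild-type control is not. In 129SvJ/Iso, both genotypes carry the same strain label. The SNP typing of the C3H line that the study's methods describe was not used here, and whether any of the 8 genes carried alleles of the donor strain in the C3H heterozygotes was not tested on these arrays.

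"Near" covers very different distances. By RefSeq gene positions (GRCm38.p6), Psmb1, Tbp and Pdcd2 followed Dll1 on its distal side at 98.8, 123 and 145 kb. On the proximal side, Tcp1 and Mrpl18 lay 2.44 and 2.45 Mb away, Ccr6 7.11 Mb, Dynlt1b 8.93 Mb and Zdhhc14 9.61 Mb. Psmb1 and Tbp were direct neighbours with 1.61 kb between them, and Pdcd2 followed Tbp after 4.15 kb. The gene models of Tcp1 and Mrpl18 overlapped by 1.46 kb, and Tcp1 also overlapped Acat3 by 1.24 kb, so that a cDNA spot from a shared stretch could bind RNA of either gene. Dynlt1b belongs to a cluster of near-identical copies (Dynlt1a, Dynlt1c and Dynlt1f), so its probes may have bound several transcripts.

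RefSeq promoter windows, from 250 bases before to 50 bases after a start site, were matched for 4 of the 8 genes. The window of Tcp1 is shown because its start lay 238 bases from that of Mrpl18 on the opposite strand, so that 263 of its 300 bases also belonged to the Mrpl18 window and the pair could be compared as genes with overlapping promoter windows. The window of Tbp is shown because its ratio was above 0 on every array of C3H liver and brain. Both are on the plus strand of GRCm38.p6, Tcp1 at chr17:12916079-12916378 and Tbp at chr17:15499638-15499937, and capitals mark CGGAAG or CCAAT on either strand.
Tcp1: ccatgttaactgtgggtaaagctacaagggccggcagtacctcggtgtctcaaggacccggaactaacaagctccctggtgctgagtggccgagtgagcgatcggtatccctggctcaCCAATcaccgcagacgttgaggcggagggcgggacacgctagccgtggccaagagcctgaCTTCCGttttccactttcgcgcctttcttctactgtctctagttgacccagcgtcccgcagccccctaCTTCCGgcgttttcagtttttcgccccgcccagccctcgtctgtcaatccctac
Tbp: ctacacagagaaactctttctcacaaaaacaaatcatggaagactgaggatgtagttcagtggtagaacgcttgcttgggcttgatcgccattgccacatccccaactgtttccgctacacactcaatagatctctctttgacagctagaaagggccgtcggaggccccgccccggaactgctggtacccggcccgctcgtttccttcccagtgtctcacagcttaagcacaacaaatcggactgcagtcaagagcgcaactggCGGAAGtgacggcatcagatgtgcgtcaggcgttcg
The core of ETS factor sites, CGGAAG, occurred 2 times in the Tcp1 window and 1 time in that of Tbp, and 16.9% of the 32851 promoter windows held it on either strand. CCAAT occurred 1 time in the Tcp1 window, all of it within the part shared with Mrpl18, against 37.4% of windows. GGGCGG, the GC box, was present in both windows and in 35.7% of all windows. TATAAA was in neither, and 13.6% of all windows had it. The 4 motifs were searched on both strands, and no match overlapped another in these windows. None of these letters stood in either of the Ccr6 windows.

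Dll1 itself had a pair of probes. Probe 5 lay below 0 on 10 of 10 arrays of C3H thymus (−0.46 ± 0.20, n = 5), and probe 20289 on 9 of 9 arrays of C3H liver (−0.81 ± 0.56, n = 4). The other probe gave −0.10 ± 0.25 in thymus and 0.15 ± 0.43 in liver, and in brain the pair gave −0.18 ± 0.10 and −0.02 ± 0.37 (n = 5). For probe 5 the brain mean differed in sign between the dyes. It was 0.05 with the heterozygous RNA in Cy3 and −0.40 in Cy5, with 4 of 10 arrays above 0. Where the probes lie relative to the lacZ insertion was not known here. In C3H spleen and in 129SvJ/Iso the SD passed the size of the mean wherever a Dll1 probe had enough values, except for probe 5 in 129SvJ/Iso brain, above 0 in 3 of 3 mice (0.34 ± 0.28). Values were fewer and wider in 129SvJ/Iso: between 21.9% and 26.96% of values per group were not used there, against 3.06% to 10.2% in C3H, and the median SD over mice was 0.50 to 0.71 against 0.23 to 0.46. Within a mouse, arrays of opposite dye did not correlate positively in C3H spleen and 129SvJ/Iso brain (median Spearman −0.039 and −0.11), so that in these groups the direction of the ratio was not settled. The median was hardly above 0 in 129SvJ/Iso spleen (0.0013) and C3H brain (0.02), and 0.06 to 0.23 in the other groups. The labels do not name the numerator, and heterozygous over wild-type was taken as the likely direction in all of them.

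By limma, which tests the mean ratio of each probe against 0 over mice, 0 of 20335 probes in C3H liver passed at an adjusted p under 0.05 (0% called), and 0% were called in the other 6 tested groups. The number with an unadjusted p under 0.05 was 2801 in C3H liver, 1627 in thymus, 1769 in brain and 1103 in spleen. It was 1899 in the liver of 129SvJ/Iso, 747 in its spleen and 847 in its brain. None of the 8 genes passed in any group in these fits of mouse means. All 11 probes had values in at least 3 mice of C3H liver, thymus and brain, 10 did in C3H spleen, 8 in 129SvJ/Iso liver, and 9 each in 129SvJ/Iso spleen and brain.

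In C3H liver 4 of the 11 probes lay below 0 in every mouse with a value (Pdcd2, Psmb1, Mrpl18 and Tcp1 probe 1574), against 6.81% of all probes, and 1 (Tbp) lay above 0, against 9.87%. Since the choice of genes drew on these ratios, nothing is read from the difference. The median of the 11 probe means was −0.22 in liver, beside 0.03 over all probes. It was −0.06 beside 0.0012 in thymus, 0.05 beside 0.01 in brain, and −0.02 (10 probes) beside −0.0050 in spleen. In brain 3 probes lay above 0 in every mouse, Dynlt1b probe 3029, Tbp and Tcp1 probe 1574, against 5.81% of all probes, and none lay below 0 in every mouse (7.05%). In thymus only Tcp1 probe 14835 lay on 1 side, below 0 (6.93%, with 5.34% above), and in spleen none did (6.09% above and 6.14% below). On every array of a group, only Tbp (liver and brain) and Dynlt1b probe 3029 (brain) lay above 0 and only Mrpl18 (liver) below. The shares of all probes above and below 0 on every array were 0.915% and 1.02% in C3H liver, 0.225% and 1.14% in thymus, 0.312% and 1.06% in brain, and 0.528% and 0.61% in spleen.

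**Figure D1:**
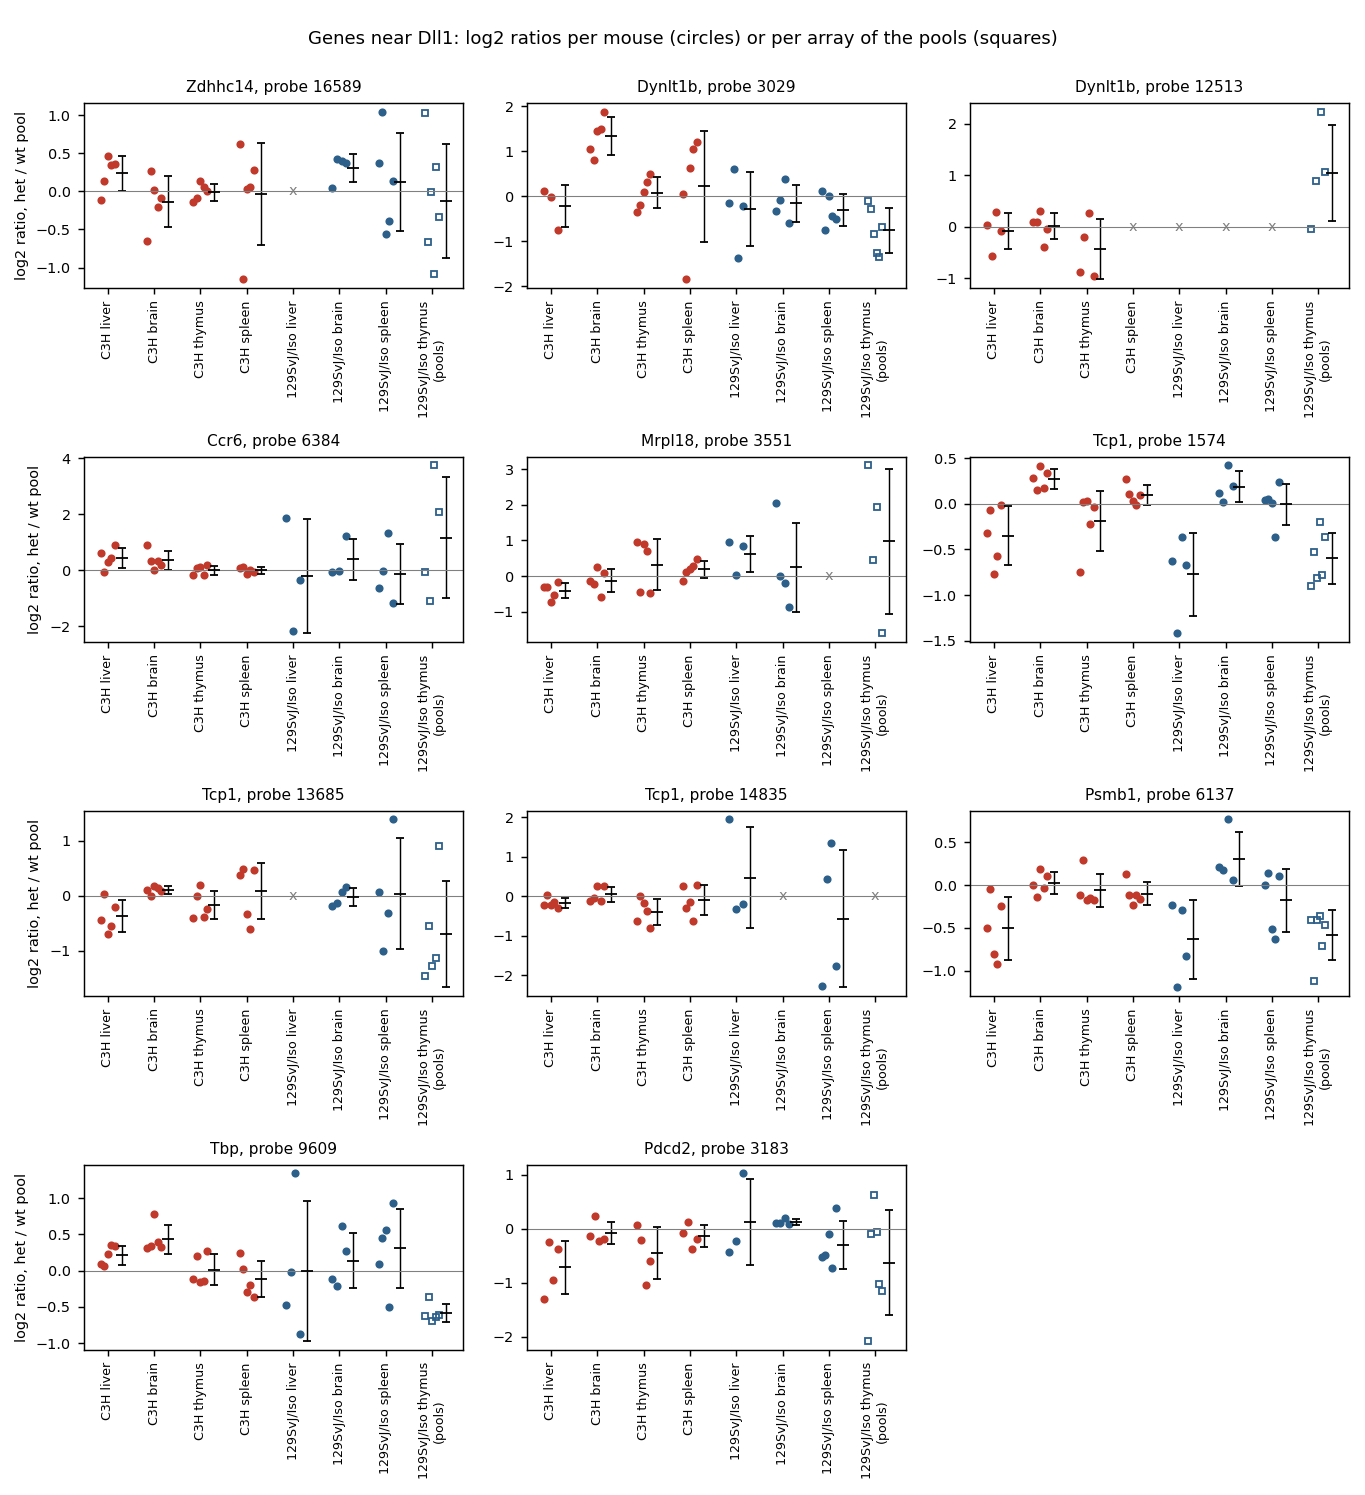
Log2 ratios (vertical axis) of the 11 probes in 8 groups (horizontal axis), with circles for mice, open squares for arrays of the thymus pools, and bars for the mean ± SD. A grey x marks fewer than 3 mice or 4 arrays. Dynlt1b probe 3029 stands between 0.81 and 1.89 in C3H brain while its second probe lies around 0.

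Dynlt1b encodes a light chain of cytoplasmic dynein, the motor that carries cargo along microtubules. Probe 3029 gave the second highest mean of all 20201 probes in C3H brain, 1.34 ± 0.42 (n = 5), a 2.53-fold higher level in heterozygotes. Since Dynlt1b was selected on this ratio, nothing is read from the rank of probe 3029. Its ratios were 1.05, 0.81, 1.45, 1.496 and 1.89 in mice 1 to 5. All 10 arrays lay above 0, from 0.61 to 2.47, with a mean of 1.60 where the heterozygous RNA was in Cy3 and 1.08 where it was in Cy5. The mice do not overlap with those of any other tested group except C3H spleen, where the ratio ran from −1.85 to 1.22 (0.22 ± 1.24, n = 5). Means were 0.08 ± 0.35 in C3H thymus (n = 5) and −0.22 ± 0.46 in C3H liver (n = 3), where the mean was 1.84 with the constant extreme values kept.

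The second Dynlt1b probe, 12513, did not share this pattern. In C3H brain its ratios were 0.08, 0.09, 0.31, −0.39 and −0.04 in mice 1 to 5 (0.01 ± 0.26), below the first probe in 5 of 5 mice by 1.33 ± 0.55. Over the 58 arrays with a value for both, the Pearson correlation of the probes was 0.0006. It gave −0.44 ± 0.58 (n = 4) in C3H thymus and −0.08 ± 0.36 (n = 4) in C3H liver, and in the other groups of mice it had a value in at most 2 of them. On the 129SvJ/Iso thymus pools it was above 0 on 3 of 4 arrays (1.04 ± 0.93), where probe 3029 was below 0. The platform annotation gives both probes the symbol Dynlt1b, and which of them measured its transcript was not tested.

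The 129SvJ/Iso mice did not show the high brain ratio of probe 3029. Their brains gave −0.34, −0.09, 0.37 and −0.59 in mice 2 to 5 (−0.16 ± 0.41), all below the lowest C3H brain. In that comparison of strains 0 of 15487 probes passed by limma (0% called), and 1533 had an unadjusted p under 0.05. The ratio was −0.29 ± 0.82 (n = 4) in 129SvJ/Iso liver and −0.32 ± 0.36 (n = 5) in spleen, with 1 mouse above 0 in each. In the 129SvJ/Iso thymus pools it was below 0 on 6 of 6 arrays, from −1.34 to −0.10.

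Among 8239 named probes with values in the same 13 organs of C3H liver, thymus and brain, those most like Dynlt1b probe 3029 were both probes of Atp6v0a1 (Pearson 0.97 and 0.94), a membrane subunit of the proton pump V-ATPase encoded on chromosome 11. In C3H brain the first Atp6v0a1 probe gave 1.35, 0.998, 1.55, 1.76 and 2.08 in mice 1 to 5, and the second gave 1.20, 0.81, 1.31, 1.54 and 1.80. Mouse 2 was lowest and mouse 5 highest for all 3 probes, with the others in the same order. The first of them was the only probe with a higher mean than Dynlt1b in that group. Next in likeness came both probes of the RNA-binding protein Hnrnpf (0.93 and 0.88) and the ribosomal protein gene Rps24 (0.88), whose brain means were only 0.09, 0.18 and 0.08.

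The likeness to Atp6v0a1 was not complete outside the C3H brain. In C3H spleen both Atp6v0a1 probes lay above 0 on 9 of 9 arrays (0.79 ± 0.31 and 0.94 ± 0.34), where Dynlt1b spread widely. Their brain ratios in 129SvJ/Iso were 0.28 ± 0.17 and −0.09 ± 0.47 (n = 4). Over all arrays with both values, Dynlt1b probe 3029 had a Pearson correlation of 0.52 with the first Atp6v0a1 probe (84 arrays) and 0.59 with the second (81 arrays). Within single organs of C3H the correlations were 0.87 and 0.77 in brain (10 arrays) and 0.43 and 0.28 in thymus (10 arrays). In C3H liver they were 0.81 and −0.47 (8 arrays). These points share mice, pools and dyes, and the correlations are descriptions. The other subunits of dynein had a median of 0.03 over 9 genes in C3H brain, with 6 above and 3 below 0. Among their probes the largest means were 0.46 ± 0.49 and −0.33 ± 0.09 (n = 4), by different probes of the light chain Dynll2. Of the cell markers in these brains, 6 of 8 erythroid probes lay below 0 in every mouse, against 7.05% of all probes. These were for haemoglobin alpha (Hba-a1) and the haem enzyme Alas2, while 1 of the 3 measured erythroid genes had a mean above 0 (0.23). The 3 measured neuronal genes had a median of −0.0046 and a highest mean of 0.02, and of them only Camk2a lay below 0 in every mouse, by both probes (−0.72 ± 0.28 and −0.68 ± 0.60, n = 4 for the second). Their part in the Dynlt1b ratio was not tested.

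**Figure D2:**
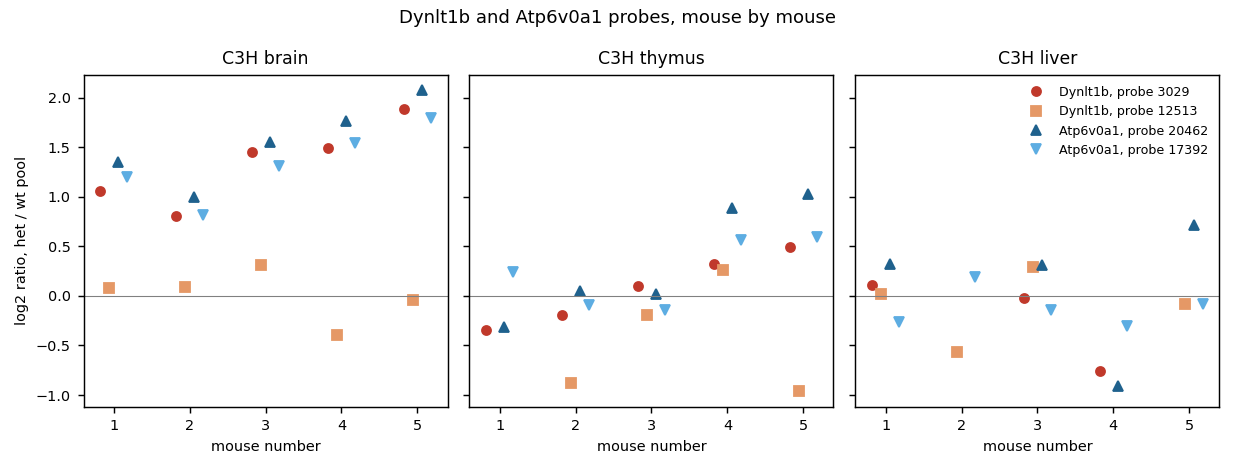
Log2 ratios (vertical axis) of both probes of Dynlt1b and both of Atp6v0a1 in C3H brain, thymus and liver, by mouse number (horizontal axis). In brain, Dynlt1b probe 3029 and both Atp6v0a1 probes lie between 0.81 and 2.08 in the same order of mice, and Dynlt1b probe 12513 between −0.39 and 0.31.

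Tbp encodes the TATA-binding protein, the part of the general factor TFIID that contacts promoter DNA. In C3H liver its ratios were 0.086, 0.069, 0.22, 0.35 and 0.33 in mice 1 to 5 (0.21 ± 0.13), a 1.16-fold level, and in C3H brain 0.31, 0.34, 0.78, 0.40 and 0.33 (0.43 ± 0.20), a 1.35-fold level. Each of the 10 liver arrays (0.02 to 0.42) and of the 10 brain arrays (0.17 to 0.94) lay above 0, in both dye orientations. In mouse means, 0.837% of 14329 probes lay above 0 in all 10 of these organs and 0.775% below. Of the same probes, which had values on all 20 arrays, Tbp was the only 1 above 0 on every array (0.00698%), and 4 probes were below 0 on every array (0.0279%). The size of the ratio was nevertheless common: 15.9% of all probes had a higher mean in liver and 2.93% in brain. Tbp was chosen with earlier results of these arrays known, so nothing is read from these shares. The 20 arrays came from 5 mice.

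In the other groups of mice, Tbp lay on both sides of 0. In C3H thymus Tbp gave 0.01 ± 0.21, with 2 of 5 mice above 0, and in C3H spleen −0.12 ± 0.25 with 2 of 5. In 129SvJ/Iso liver gave −0.01 ± 0.97 (n = 4), brain 0.14 ± 0.38 (n = 4) and spleen 0.31 ± 0.54 (n = 5), and mice lay on both sides of 0 in each. The thymus pools lay below 0 on 5 of 5 arrays, from −0.69 to −0.37. Ordered by mean, C3H brain and liver came first in C3H and their mice overlapped (0.31 to 0.78 against 0.07 to 0.35), as did those of liver and thymus.

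Of the other TFIID subunits, 5 genes were measured in C3H liver and 4 of them lay above 0, with a median of 0.17. In brain 4 of 5 lay above 0 with a median of 0.03. Taf6 gave 0.28 ± 0.42 in liver (n = 4) and Taf12 probe 17268 gave 0.33 ± 0.63 in brain, each spreading to both sides of 0. Taf10 probe 20107 gave −0.22 ± 0.26 in liver and −0.22 ± 0.20 in brain. The list was thus small, and 1 of its 7 probes lay above 0 in every liver mouse (Taf5, 0.19 ± 0.16).

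**Figure D3:**
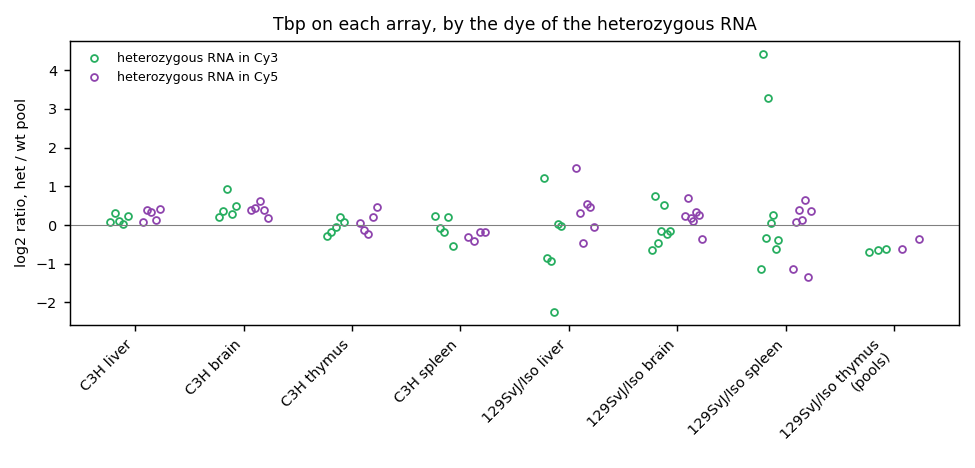
Log2 ratio of Tbp on each array (vertical axis) in 8 groups (horizontal axis), coloured by the dye of the heterozygous RNA. All C3H liver and brain arrays lie above 0 in both colours, and all arrays of the 129SvJ/Iso thymus pools with a value lie below 0.

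Psmb1, the neighbour of Tbp, encodes a subunit of the 20S proteasome core that degrades tagged proteins. In C3H liver its ratios were −0.50, −0.04, −0.81, −0.92 and −0.25 in mice 1 to 5 (−0.50 ± 0.37), below 0 on 9 of 10 arrays. Tbp exceeded it in 5 of 5 livers by 0.71 ± 0.45 and in 5 of 5 brains by 0.41 ± 0.14, where Psmb1 gave 0.03 ± 0.13. In thymus (−0.06 ± 0.20) and spleen (−0.10 ± 0.14) of C3H the neighbours did not differ beyond their spread. In 129SvJ/Iso spleen Tbp exceeded Psmb1 in 5 of 5 mice by 0.48 ± 0.44 and Pdcd2 in 5 of 5 by 0.60 ± 0.25, while in 129SvJ/Iso brain it exceeded Psmb1 in 1 of 4 mice (−0.17 ± 0.27).

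Psmb1 was below 0 in 129SvJ/Iso liver as well, with −0.23, −1.20, −0.29 and −0.83 in mice 1, 2, 3 and 5 (−0.64 ± 0.46) and 11 of 12 arrays below 0. The mice of both strains overlapped, and their means differed by 0.13. The 129SvJ/Iso thymus pools were below 0 on 6 of 6 arrays (−1.12 to −0.37), and spleen gave −0.18 ± 0.37. In 129SvJ/Iso brain all 4 mice lay above 0 (0.06 to 0.77, mean 0.30 ± 0.32), but the mean became −0.05 when the ratios of the Cy5 arrays were turned, which the data allow there.

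Most other genes of the proteasome core also lay below 0 in liver. In C3H liver 12 of 15 measured genes had a mean below 0, with a median of −0.145, led by Psma1 (−0.60 ± 0.61, n = 4) and Psma7 (−0.51 ± 0.50). In 129SvJ/Iso liver 7 of 9 lay below 0 with a median of −0.46. Psmb4 (−0.92 ± 0.58, n = 3) and Psmb7 (−0.87 ± 0.34, n = 4) were below 0 there in every mouse, while Psma6 gave 1.31 ± 0.52 and Psmb2 0.96 ± 0.47 (n = 3), above 0 in every mouse. The median over all probes was 0.03 and 0.07 in the livers of C3H and 129SvJ/Iso. In brain the proteasome medians were 0.06 and 0.16, and that of 129SvJ/Iso became −0.30 with the Cy5 arrays turned. Psmb1 lay within the range of these genes in all groups.

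Markers of hepatocytes lay below 0 in both livers, unlike Tbp, Ccr6 and Zdhhc14 in C3H liver (0.21, 0.44 and 0.24). All 5 measured marker genes had means below 0 in C3H liver (−0.52 to −0.26), as did all 4 in 129SvJ/Iso liver (−1.15 to −0.69). Averaged over the markers, the C3H livers gave −0.36, 0.11, −0.83, −0.59 and −0.15 in mice 1 to 5, so that mice 3 and 4, lowest for Psmb1, were also lowest for the markers. The 129SvJ/Iso livers gave −0.79, −1.57, −0.54 and −0.53 in mice 1, 2, 3 and 5. Mouse 2 was lowest for both, but mouse 5, second lowest for Psmb1 (−0.83), was highest for the markers. Erythroid genes averaged −0.77 to 0.10 in C3H livers and −1.27 to −0.41 in 129SvJ/Iso livers. Their part in the ratios of Psmb1 or of the other liver genes was not tested.

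Tcp1 encodes the alpha subunit of the chaperonin CCT, a double ring of related subunits that folds actin and tubulin. Its probe 1574 had opposite signs in liver and brain. In C3H liver the ratios were −0.32, −0.07, −0.77, −0.57 and −0.016 in mice 1 to 5 (−0.35 ± 0.32), and in C3H brain 0.28, 0.15, 0.41, 0.17 and 0.33 (0.27 ± 0.11). In 129SvJ/Iso liver they were −0.63, −1.42, −0.37 and −0.67 in mice 1, 2, 3 and 5 (−0.77 ± 0.45), and in brain 0.12, 0.02, 0.42 and 0.19 in mice 2 to 5 (0.19 ± 0.17). Liver and brain did not overlap in either strain. In C3H, 0.251% of 19924 probes were below 0 in every liver and above 0 in every brain, and in 129SvJ/Iso 4.24% of 11403 were. Tcp1 was chosen with earlier results known, so nothing is read from these shares. Turning the Cy5 arrays made the 129SvJ/Iso brain mean −0.25.

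The other Tcp1 probes gave the same order of means in C3H with smaller gaps, but their brain means differed in sign between the dyes. With the heterozygous RNA in Cy3 the brain means were 0.34 (probe 13685) and 0.39 (probe 14835), and in Cy5 −0.14 and −0.30. Probe 13685 had −0.37 ± 0.29 in liver, below 0 in 4 of 5 mice, and 0.10 ± 0.07 in brain, above 0 in 4 of 5. Probe 14835 had −0.17 ± 0.13 in liver and 0.05 ± 0.19 in brain, above 0 in 2 of 5, and was lowest in thymus (−0.40 ± 0.32, below 0 in 5 of 5). The others gave −0.19 ± 0.33 and −0.16 ± 0.26 in thymus, where T cell markers had a median of −0.20 with 5 of 7 genes below 0. The part of these markers was not tested. In the 129SvJ/Iso thymus pools probe 1574 was below 0 on 6 of 6 arrays (−0.90 to −0.20) and probe 13685 on 4 of 5. Probe 14835 was erratic in 129SvJ/Iso, with a single mouse at 1.94 in liver and SDs of 1.28 and 1.74 in liver and spleen.

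Tcp1 probe 1574 and Psmb1 were the probes below 0 in every liver mouse of both strains, 2 of 8 probes measured in both, against 2.69% of 13201 probes. Psmb1 was selected on its C3H liver ratio, and Tcp1 was chosen with earlier results known, so nothing is read from the difference. The other CCT subunits lay below 0 in C3H liver in 6 of 7 genes (median −0.08), with Cct2 at −0.50 ± 0.36 (n = 4) and Cct5 at −0.19 ± 0.07, and above 0 in C3H brain in 6 of 7 (median 0.11). In 129SvJ/Iso they lay below 0 in liver in 6 of 7 (median −0.59) and above 0 in brain in 6 of 6 (median 0.26). With the Cy5 arrays turned, 3 of 6 lay above 0 in 129SvJ/Iso brain (median −0.06). Cct4 (−1.99 ± 2.25) and Cct6a (1.26 ± 1.22, n = 3 each) had the largest means in 129SvJ/Iso liver, with wide spreads. Cct8 gave −0.91 ± 0.28 there, below 0 in 4 of 4 mice, and 0.29 ± 0.30 in brain, above 0 in 4 of 4. All 3 Tcp1 probes lay within the CCT range in C3H liver, and probe 1574 exceeded all other subunits in C3H brain.

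**Figure D4:**
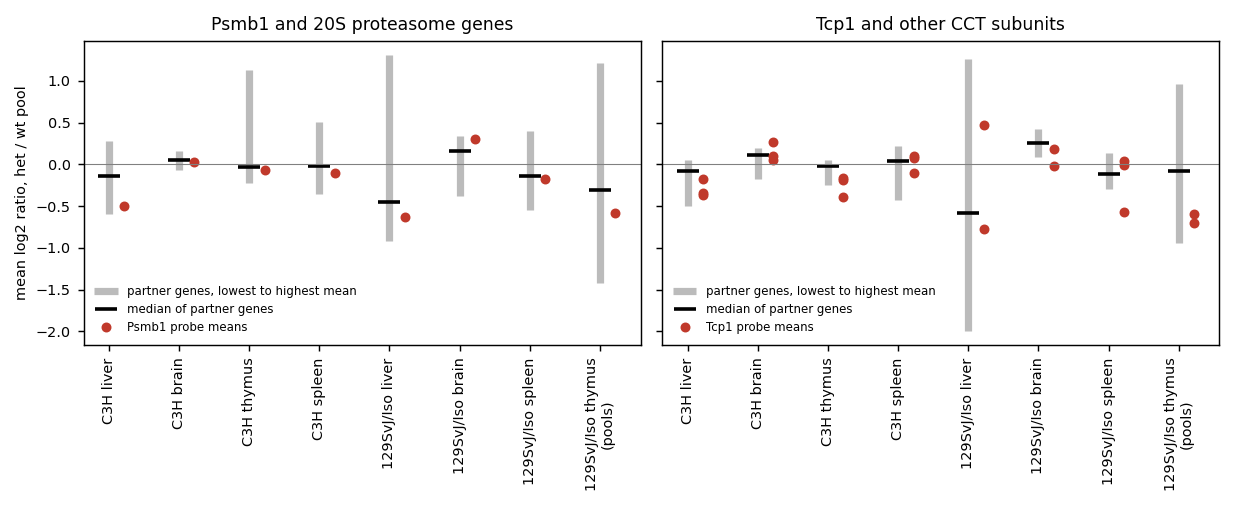
Mean log2 ratios (vertical axis) of Psmb1 and the other 20S proteasome genes (left) and of Tcp1 and the other CCT subunits (right) in 8 groups (horizontal axis). Grey bars span the partner genes, black dashes mark their medians and red circles mark the probes of Psmb1 or Tcp1. Medians lie below 0 in both livers and above 0 in both brains, but in 129SvJ/Iso brain they turn to −0.30 and −0.06 when the Cy5 arrays are turned.

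Mrpl18, which starts head to head with Tcp1, encodes a protein of the large subunit of the mitochondrial ribosome. In C3H liver it was below 0 on 10 of 10 arrays (1.02% of all probes), with −0.31, −0.31, −0.72, −0.52 and −0.17 in mice 1 to 5 (−0.41 ± 0.22). Mrpl18 was selected on this ratio, so nothing is read from that share. In C3H liver Mrpl18 differed from Tcp1 probes 1574 and 13685 by −0.06 ± 0.13 and −0.04 ± 0.18, less than the spread. In brain it lay below Tcp1 probe 1574 in 5 of 5 mice, with a difference of −0.39 ± 0.22 and a mean of −0.12 ± 0.31. Its differences from probes 13685 and 14835 in brain were −0.23 ± 0.31 and −0.17 ± 0.18, and that from probe 14835 in liver was −0.24 ± 0.26. None of these means passed the SD of the differences. By mouse, Mrpl18 lay above probe 14835 in 0 of 5 brains and 1 of 5 livers, and above probe 13685 in 1 of 5 brains. In C3H thymus its mice lay on both sides, with 0.94, 0.89 and 0.69 in mice 1, 3 and 4 and −0.44 and −0.46 in mice 2 and 5.

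Mrpl18 was above 0 in 129SvJ/Iso liver in the 3 mice with a value (0.95, 0.04 and 0.86 in mice 1, 2 and 5; 0.62 ± 0.50), the opposite side from every C3H liver. It exceeded Tcp1 probe 1574 there by 1.52 ± 0.06 in 3 of 3 mice. Of 13201 probes, 0.72% lay below 0 in every C3H liver and above 0 in every 129SvJ/Iso liver. The C3H part of this was met by the selection of Mrpl18, so nothing is read from the share. The strains differed by −1.02 (C3H minus 129SvJ/Iso), and 0 of 8 probes of the 8 genes passed limma's test of this difference, in which 38 of 13201 probes were called (0.288%). Only 8 of 12 arrays had a usable value, and 3 of these lay below 0. With the constant extreme values kept, the mean was 1.997. Among the other mitochondrial large subunit genes, 23 of 35 lay below 0 in C3H liver (median −0.04) and 18 of 27 in 129SvJ/Iso liver (median −0.15). Mrpl51 gave −0.48 ± 0.19 in C3H liver, below 0 in 5 of 5 mice, and Mrpl10 probe 577 gave −0.54 ± 0.63.

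Pdcd2, the third gene of the distal cluster, encodes a protein needed for the growth of dividing cells and linked to the assembly of the small ribosomal subunit. It had the lowest C3H liver mean of the 11 probes, −0.72 ± 0.49 (n = 4), with −1.30, −0.25, −0.94 and −0.38 in mice 1 to 4. A lower mean was found for 1.23% of all probes, but Pdcd2 was selected on this ratio, so nothing is read from the rank. Thymus gave −0.44 ± 0.48 (n = 4) with 3 of 4 mice below 0, and brain −0.08 ± 0.21 (n = 4). In C3H, Tbp lay above Pdcd2 in every liver, thymus and brain with both values. Mouse 5 had no value in both dye orientations of the liver. With a single orientation sufficing, the means were −0.60 in liver and −0.36 in brain (n = 5 each).

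In 129SvJ/Iso the livers gave −0.44, −0.23 and 1.02 in mice 1, 3 and 5, on both sides of 0. All 4 brains lay above 0 within a narrow range (0.09 to 0.20, 0.12 ± 0.05), and with the sign turned on the Cy5 arrays the mean was −0.28. Spleen gave −0.29 ± 0.44 with 4 of 5 mice below 0. The thymus pools were below 0 on 5 of 6 arrays (−2.08 to 0.63). The livers of both strains overlapped.

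Ccr6 encodes a chemokine receptor of B cells and some T cells. In C3H liver its ratios were 0.60, −0.06, 0.31, 0.45 and 0.89 in mice 1 to 5 (0.44 ± 0.35), above 0 on 9 of 10 arrays, and in C3H brain 0.91, 0.35, −0.0050, 0.33 and 0.185 (0.35 ± 0.34), again on 9 of 10 arrays. In C3H thymus and spleen, where lymphocytes are the main cells, it gave 0.0033 ± 0.17 and −0.01 ± 0.11. Mice of liver and thymus overlapped, since liver mouse 2 lay below 0. In 129SvJ/Iso its SD was 0.74 to 2.04 in liver, brain and spleen, and mice lay on both sides of 0 in each.

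B cell markers gave values on the same side in liver but not in brain. All 5 measured genes had means above 0 in C3H liver (median 0.11), from Cd79b at 0.0034 ± 0.11 to Ms4a1 at 0.69 ± 0.49 (n = 3). In C3H brain 2 of 5 lay above 0 (median −0.09). Averaged over the markers measured in every mouse, the C3H livers gave 0.03 to 0.18 and the brains −0.63 to 0.21. In C3H spleen 4 of 5 markers lay below 0 (median −0.35), beside −0.01 for Ccr6. With the Cy5 arrays turned, which the data allow there, 5 of 5 did (median −0.17), beside −0.18 for Ccr6. Their part in the Ccr6 ratio was not tested. Of the other chemokine receptors, 3 were measured in C3H liver, with Ccr2 probe 20271 at −0.68 ± 0.44 and Ccr1 at 0.51 ± 0.14 (n = 3).

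Zdhhc14, the most distant of the 8 genes, encodes an enzyme of the DHHC family that attaches palmitate to proteins. In C3H liver it gave −0.12, 0.13, 0.47, 0.35 and 0.35 in mice 1 to 5 (0.24 ± 0.23), above 0 on 9 of 10 arrays. Thymus (−0.01 ± 0.11), brain (−0.13 ± 0.34) and spleen (−0.03 ± 0.67) of C3H lay around 0. In 129SvJ/Iso brain all 4 mice were above 0 (0.04, 0.42, 0.40 and 0.37 in mice 2 to 5), and this mean of 0.31 ± 0.18 became −0.04 with the sign turned on the Cy5 arrays. Of the other DHHC genes, 5 of 9 lay above 0 in C3H liver (median 0.03), with Zdhhc17 probe 19367 at 0.52 ± 0.43 (n = 4) and Zdhhc6 probe 20774 at −0.67 ± 1.11 (n = 3).

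In 129SvJ/Iso brain 4 of 9 probes, those of Psmb1, Pdcd2 and Zdhhc14 and Tcp1 probe 1574, lay above 0 in every mouse, against 11.8% of all probes, and none below 0 (8.37%), in the direction as deposited. In 129SvJ/Iso liver 2 of 8 lay below 0 in every mouse, against 16.8%, and 1 above 0 (Mrpl18), against 17.6%. In 129SvJ/Iso spleen 0 of 9 lay on 1 side (7.24% above and 7.2% below). On the thymus pools 4 of 10 probes lay below 0 on every array with a value, those of Dynlt1b (3029), Tbp, Tcp1 (1574) and Psmb1, against 11.4% of all probes, and 0 lay above 0, also against 11.4%. The median over all probes was 0.24 on these pools, and that of the 10 probes was −0.58. The 6 arrays repeat 1 pair of pools and carry no spread between mice. Since the genes were chosen with earlier results of these data known, nothing is read from these counts.

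The neighbourhood of Dll1 as a whole did not show a common direction in the C3H line. Within 10 Mb, RefSeq placed 87 genes with 118 probes besides Dll1. With the 8 genes left out, the median ratio was 0.08 in liver, 0.0044 in thymus and −0.01 in brain, beside 0.02, −0.0099 and 0.0032 on other chromosomes. The share of probes on 1 side of 0 in every mouse was 17.6%, 12.7% and 14.6%, beside 16.5%, 12.5% and 12.9%. Within 1 Mb, with Psmb1, Tbp and Pdcd2 included, it was 30.8% of 13 probes in liver, 3 of 12 in thymus and 16.7% of 12 in brain. Psmb1, Tbp and Pdcd2 were among the liver probes on 1 side. Psmb1 and Pdcd2 were selected on that ratio, so nothing is read from the share in liver. Of the 74 probes within 10 Mb with a value in all 15 C3H livers, thymuses and brains, 0 lay on 1 side of 0 throughout, against 0.0841% of 13078 probes above and 0.0841% below. At such shares 0 of 74 was the likely count in any case, so nothing is read from it. Fam120b, the gene between Dll1 and Psmb1, gave 0.06 ± 0.16, −0.05 ± 0.18 and −0.08 ± 0.12 in liver, thymus and brain of C3H.

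**Figure D5:**
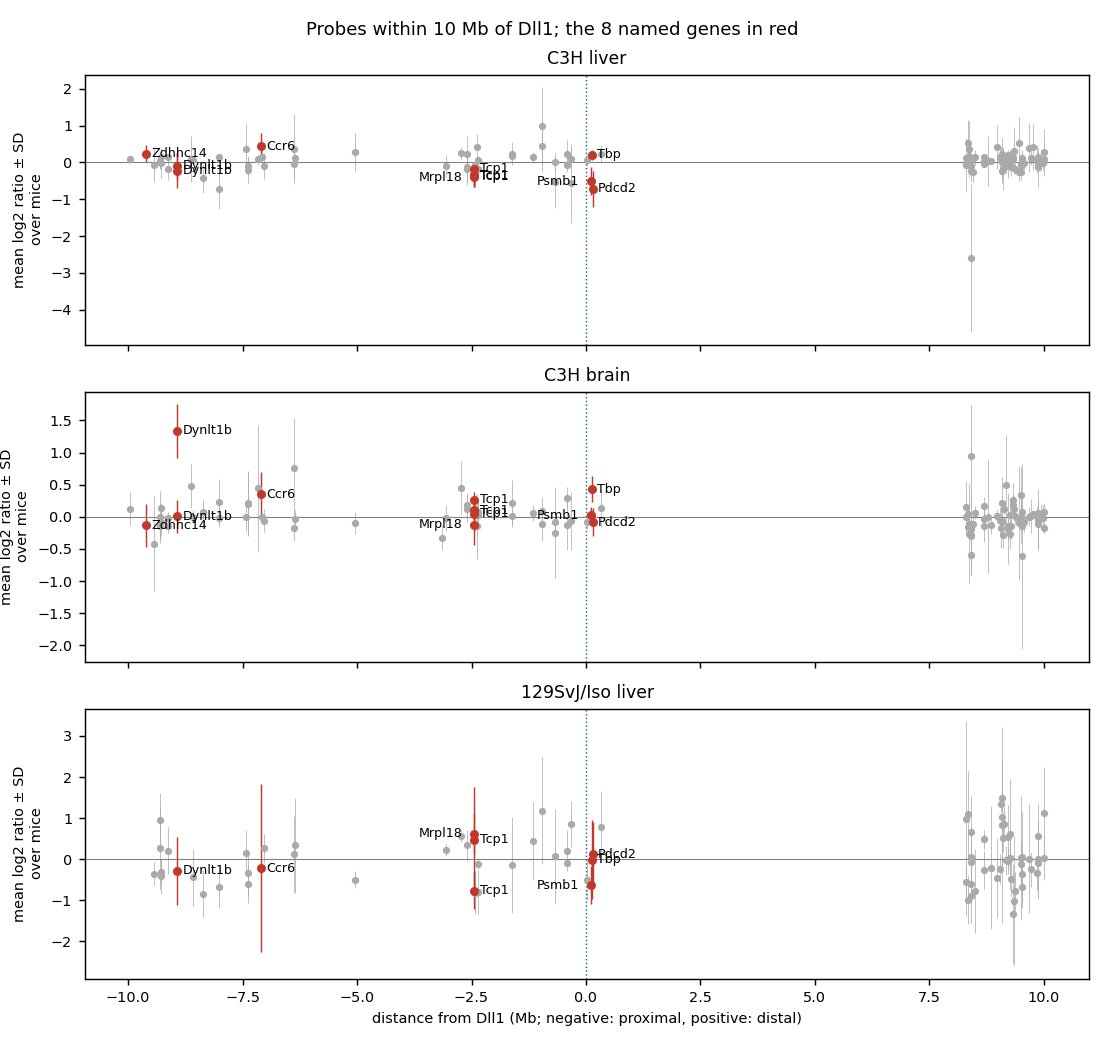
Mean log2 ratio ± SD over mice (vertical axis) of each probe within 10 Mb of Dll1, by distance from Dll1 (horizontal axis, Mb), in C3H liver, C3H brain and 129SvJ/Iso liver. The 8 genes are red and other genes grey. Next to Dll1, Tbp lies above and Psmb1 and Pdcd2 below 0 in C3H liver, and Dynlt1b probe 3029 stands apart in C3H brain.

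The differences of the ratio between organs and between strains were tested over all probes. Between C3H liver and thymus 0 of 19790 probes passed limma (0% called), between C3H brain and thymus 1 of 19739 (0.00507%, and 0 with the mouse as a block or with any mouse left out), and between C3H liver and brain 0 of 19924 (0%), with 1586, 1418 and 1860 at an unadjusted p under 0.05. None of the 8 genes was among those called. Between the strains 38 probes differed in liver and 0 of 14031 in spleen (0% called, 986 at an unadjusted p under 0.05), again with 0 of the 8 genes. Tcp1 probe 1574 differed by 0.43 in liver (C3H minus 129SvJ/Iso) and by 0.08 in brain, and Tbp by 0.22 and 0.30.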

How the data were processed

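Heterozygous RNA in 1 dye (Cy3 or Cy5) was hybridised with pooled wild-type RNA in the second. The deposited log2 values were taken to be ratios of heterozygous over wild-type signal, already turned for the dye by the authors. The labels do not name the numerator. Heterozygous over wild type was taken as likely because genes the study calls lower in C3H liver and thymus lie below 0. How the values were normalized was not given in the sources used here. On each of the 86 arrays 1 extreme value (14.88 to 17.54 in size, its sign set by the dye) recurs, and it was treated as missing. The labels list 5 mice in the C3H and 4 in the 129SvJ/Iso wild-type pools, while the protocol text gives another number and 1 thymus array lists no pool mice.

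Arrays of a mouse were averaged within each dye and then over both dyes. Probes with at least 3 mice were tested against 0 with limma 3.58.1 in R 4.3.3 (two-sided, Benjamini-Hochberg adjusted p under 0.05), and differences between groups likewise. Descriptions used Python 3.11.15. The thymus pools, described from 4 arrays upwards, had no test. No litters are labelled, and p-values measure the spread between these mice. The number of mice and arrays limits precision. The fits were tested on simulated data. Organs of C3H mice with the same number come from the same animal. Their deviations from the group means correlated between −0.14 and 0.14.

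The 8 genes, the partner and marker lists and the tests were chosen with earlier results of these data known. The text names every probe of the 8 genes and Dll1, up to 6 neighbours within 10 Mb on 1 side of 0 in all C3H livers, thymuses and brains (0 qualified), the 5 probes most like the probe with the largest mean, and up to 2 genes with the largest means per partner list and organ. Fam120b, Taf5, Psmb4, Psmb7, Cct8 and the marker genes were named after their values were seen. Alternatives were array centring, extreme values kept, each mouse left out, a value required in every mouse, either dye sufficing, a random mouse effect, probes averaged per gene, a mouse block, the sign turned on Cy5 arrays of C3H spleen and 129SvJ/Iso brain, and, chosen after seeing the data, spots whose value is a ratio of small whole numbers made missing and the sign turned in the medians of the lists. Names, distances and promoters came from RefSeq (GRCm38.p6) through the Entrez IDs of 12771 probes.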

Additional observations from a re-analysis of the deposited data

Results flagged for a closer look

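In 4 of 63 combinations of probe and group with 4 or 5 mice, 1 mouse stood apart from the others; chance alone flags about 1 in 20. Tbp in C3H brain was 0.78 in mouse 3 and 0.31 to 0.40 in the others. Psmb1 in C3H thymus was 0.29 in mouse 2 and −0.17 to −0.11 in the others. Pdcd2 in 129SvJ/Iso brain was 0.20 in mouse 4 and 0.0925 to 0.10 in the others, and Zdhhc14 in the same group was 0.040 in mouse 2 and 0.37 to 0.42 in the others.

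In 4 of 111 pairs of groups that share a strain or an organ, every mouse of the first group lay on the opposite side of 0 from every mouse of the second. Tcp1 probe 1574 did so between liver and brain, with a difference of −0.62 in C3H (liver minus brain) and −0.96 in 129SvJ/Iso. Psmb1 did so in 129SvJ/Iso (−0.94, liver minus brain). Mrpl18 did so between the livers of the strains (−1.02, C3H minus 129SvJ/Iso). Beside these, 0.251%, 4.24% and 0.72% of all probes lay below 0 in the first group and above 0 in the second, for C3H liver against brain, 129SvJ/Iso liver against brain and the livers of C3H against 129SvJ/Iso. Since the genes were chosen with earlier results known, nothing is read from these shares. The pairs with C3H liver were tested over all probes by limma, where these genes did not pass. The difference between 129SvJ/Iso liver and brain was not tested, and its direction is not settled in brain.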

How the results depend on the processing

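With all arrays and the mouse as a random effect, limma called 33 probes in C3H thymus, 4 in C3H brain, 793 in 129SvJ/Iso liver and 4 in 129SvJ/Iso spleen, where the fits of mouse means called 0. Among the 4 of 20201 in C3H brain was 1 of the 11 probes of the 8 genes, for Dynlt1b. Among the 793 of 13462 in 129SvJ/Iso liver was 1 of 8, for Tcp1. Both genes were chosen with earlier results known, so nothing is read from these calls. The consensus correlation of these fits was −0.025 to 0.11. The cause was not tested. The median of the 8 genes in 129SvJ/Iso liver, −0.11, became −0.46 with a value required in every mouse, −0.22 with either dye sufficing and −0.0032 without spots whose value is a ratio of small whole numbers (an alternative chosen after seeing the data), and ran from −0.55 to −0.31 with 1 mouse left out. In 129SvJ/Iso brain, turning the Cy5 arrays gave a median of −0.25 in place of 0.19, and reversed Tcp1 probe 1574 (−0.25), Pdcd2 (−0.28), Psmb1 (−0.050) and Zdhhc14 (−0.037). In C3H spleen it gave −0.18 for Ccr6, 0.29 for Pdcd2 and −0.12 for Tcp1 probe 1574, in place of −0.01, −0.13 and 0.10. The 38 probes differing between the livers of the strains became 13 with array medians subtracted and 0 with extreme values kept, and 0 to 253 with 1 mouse left out, most without 129SvJ/Iso mouse 3. The 0 between the brains became 0 to 16, 16 without 129SvJ/Iso mouse 2 and 6 without mouse 4, and the 0 between C3H liver and brain 0 to 1. The 1 probe differing between C3H brain and thymus was lost (0) with the mouse as replicate block and whichever mouse was left out. The block changed no other call. Without these spots, 10 probes in place of 22 lay on 1 side in all C3H livers, thymuses and brains. Apart from the 4 reversed values, 665 values of single probes of the 8 genes moved by less than the spread and 10 by more. Those of C3H spleen given above are among the 10. The spread was that between mice, or between arrays for the thymus pools.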
